A study of Danio rerio with 24 samples.

Results

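This account follows 4 genes of dorsoventral patterning in zebrafish embryos: gsc (ENSDARG00000059073), chrd (ENSDARG00000006110), bmp7a (ENSDARG00000018260) and szl (ENSDARG00000099637). They were taken by gene identifier from count files that each list 32520 genes, and all 4 were among the 11238 genes with enough counts to be tested. RNA came from whole embryos of the wild-type strain TLAB at 3 or 4 hours post fertilization (hpf). Embryos of both ages were left untreated, kept with 1 µM oligomycin, an inhibitor of the mitochondrial ATP synthase, or exposed to 10 µg/ml actinomycin D, which blocks transcription. The treatment protocol puts both inhibitors into the E3 embryo medium from laying onward, whereas the series design describes the actinomycin embryos as injected, so that route is unsettled here. Each of the 6 groups had 4 libraries of 3′ end reads, 24 in all, and the study asked whether oligomycin embryos switch on zygotic genes, with actinomycin D as the block.

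The back and belly of a fish embryo are set by a gradient of bone morphogenetic protein (BMP) signalling that is high ventrally. The dorsal organizer lowers that signal: Goosecoid (gsc) is a homeodomain repressor made there, and Chordin (chrd) is a secreted protein that binds BMP ligands and keeps them from their receptors. Bmp7a (bmp7a) is a ligand that acts as a heterodimer with Bmp2b. Sizzled (szl) is a secreted protein of the Frizzled-related family, induced ventrally by BMP signalling, that inhibits the Tolloid-type proteases which cut Chordin.

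Levels are given as CPM, in which each library is scaled to the same size by its TMM factor, and are compared between groups for 1 gene at a time. The median library had 2675171 counts, the smallest 1453642 (replicate 3 of oligomycin at 3 hpf) and the largest 3431533. In libraries of this depth 1 read is worth less than 1 CPM, and a group with no count in any of its 4 libraries is given with the level that 3 counts over the group would have. Intervals on counts and these limits cover counting error only. Libraries fall into 2 numbered series, replicates 1 and 2 (series 1) and replicates 3 and 4 (series 2); what the numbers mark is not stated. The labels do not say that replicates came from separate clutches, so p-values measure the spread between these samples, which may be technical. The summed level of 5 blastula markers was at least 1891.8 CPM in every library, and 3784 to 3941 CPM in untreated 4 hpf embryos. sox3, 1 of the 5, had means of only 1.14 CPM at 3 hpf and 4.27 CPM at 4 hpf with actinomycin D. The 3 markers of later tissues (myl7, ins and elavl3) summed to at most 4.75 CPM in any library.

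In untreated embryos all 4 genes rose between 3 and 4 hpf, the normal course against which the inhibitors were set. gsc stood at 13.2, 13.0, 5.04 and 2.18 CPM at 3 hpf (replicates 1 to 4) and at 55.7, 56.4, 44.1 and 40.4 CPM at 4 hpf. It was already present in every library at 3 hpf, and each 4 hpf library was above each 3 hpf library. The rise was 2.57 on the log2 scale (SE 0.416, edgeR quasi-likelihood test with Benjamini-Hochberg adjustment over all genes tested, adjusted p 9.41e-05). SE here is the size of the log2 fold change divided by the square root of the test's F statistic. It is not a standard error from the model. A gene is called higher or lower below where that adjusted p is under 0.05. Statements on overlap between libraries describe the named genes only, since the share of all genes without overlap was not counted.

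chrd was at 1.17, 8.70, 0 and 0.623 CPM in untreated 3 hpf embryos and at 161, 124, 64.4 and 68.5 CPM at 4 hpf. Most of its 27 counts at 3 hpf lay in replicate 2, and the 4 hpf libraries were all higher. The log2 rise of chrd was 5.36 (SE 0.843, edgeR adjusted p 0.000209).

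bmp7a was barely detected at 3 hpf, at 2.34, 1.58, 0.720 and 0.311 CPM, and reached 89.8, 112, 42.7 and 60.3 CPM at 4 hpf. No library of one age overlapped the other, and the log2 rise was 5.94 (SE 0.599, edgeR adjusted p 4.89e-06). szl had no count in any of the untreated 3 hpf libraries, which allows a level of up to 0.271 CPM over the group. At 4 hpf szl was at 67.4, 45.1, 26.9 and 33.2 CPM. Pooled over the group, szl was at least 154-fold higher at 4 hpf than at 3 hpf (edgeR adjusted p 1.06e-05).

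All 4 of these genes were thus called higher at 4 hpf, where 12.8% of all genes tested were. Each call held in series 1 alone and in series 2 alone. At 4 hpf both untreated libraries of series 1 were above both of series 2 for each of the 4 genes, with series means of 143 and 66.4 CPM for chrd, 101 and 51.5 CPM for bmp7a, 56.3 and 30.0 CPM for szl and 56.1 and 42.3 CPM for gsc.

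**Figure D1:**
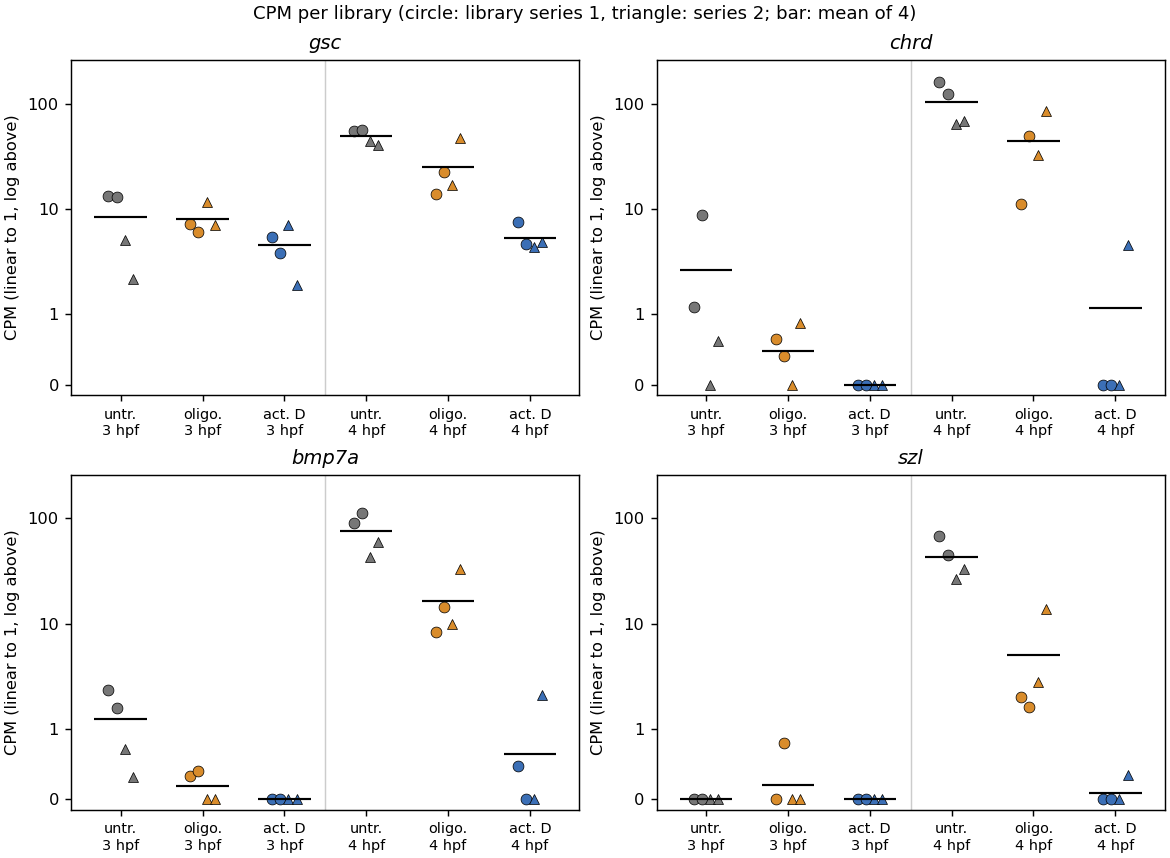
CPM of gsc, chrd, bmp7a and szl in each of the 24 libraries (y axis linear up to 1 CPM and logarithmic above; circles library series 1, triangles series 2, bars the mean of 4). In untreated embryos all 4 genes are higher at 4 hpf than at 3 hpf. Actinomycin D libraries lie at or near 0 except for gsc and, at 4 hpf, replicate 4 of chrd and bmp7a. Oligomycin 4 hpf libraries of bmp7a and szl lie between those of the other 4 hpf groups, while for gsc and chrd oligomycin replicate 4 reaches into the untreated range.

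Actinomycin D embryos served as the transcription block. At 3 hpf none of their libraries held a count of chrd, bmp7a or szl, which allows up to 0.291 CPM over the group for each. gsc was the exception, at 5.49, 3.85, 7.0 and 1.92 CPM at 3 hpf. Its 46 counts there were spread over all 4 libraries, overlapping the untreated embryos of the same age.

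Against untreated embryos at 3 hpf, actinomycin D gave no call among these genes, where 0.409% of all genes were called lower. edgeR gave 2 of the 4 an unadjusted p under 0.05 and DESeq2 called 0. bmp7a was at least 4.04-fold lower (edgeR adjusted p 0.731) and its libraries did not overlap those of untreated embryos. chrd was at least 8.38-fold lower (edgeR adjusted p 1), with an overlap because untreated replicate 3 was at 0 too. The log2 fold change of gsc was -0.86 (SE 0.489, edgeR adjusted p 1).

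At 4 hpf all 4 genes were lower in actinomycin D than in untreated embryos, without overlap, where 7.12% of all genes were called lower. gsc was at 7.46, 4.69, 4.33 and 4.91 CPM and differed from untreated embryos by -3.20 in log2 units (SE 0.443, edgeR adjusted p 1.28e-05). These levels overlapped those of actinomycin D embryos at 3 hpf, and the change with time was 0.23 (SE 0.520, edgeR adjusted p 0.842).

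chrd was absent from actinomycin D replicates 1, 2 and 3 at 4 hpf and stood at 4.56 CPM in replicate 4, from 13 counts. Its log2 fold change against untreated embryos was -6.31 (SE 0.936, edgeR adjusted p 0.000121). bmp7a was at 0.466, 0, 0 and 2.11 CPM and differed from untreated embryos by -6.69 in log2 units (SE 0.655, edgeR adjusted p 1.19e-06). Again replicate 4 was the highest, with 6 of the 7 counts of the group. It also stood apart beyond these genes: of the 800 genes called lower in actinomycin D at 4 hpf, 410 were highest in replicate 4 and 100 to 133 in each other library. Its 9 enveloping layer markers summed to 28.4 CPM, against 2.61 to 4.64 CPM in the other 3 libraries, and its 3 yolk syncytial layer markers to 11.9 CPM against 0.

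szl had 1 count in the actinomycin D libraries at 4 hpf, also in replicate 4, against 398 in the untreated libraries. The ratio was 423-fold lower, with an exact 95% counting interval from 75.5 to 16742 (edgeR adjusted p 7.79e-06). All 4 calls held without actinomycin D replicate 4 and within each library series. Between 3 and 4 hpf actinomycin D embryos gave 0 calls among these genes by edgeR, 0 at an unadjusted p under 0.05 and 0 by DESeq2, where 3.23% of all genes were called higher. The difference between the time courses of actinomycin D and untreated embryos is given for gsc alone, since the other 3 genes had no count in actinomycin D at 3 hpf and their fitted values depend on the prior count. For gsc it was -2.34 in log2 units (SE 0.670, edgeR adjusted p 0.0808), so that edgeR called 0 of the 4 (1 at an unadjusted p under 0.05), where 1.01% of all genes were called lower. DESeq2 called 2, gsc among them.

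At 3 hpf edgeR called none of the 4 genes in oligomycin against untreated embryos (0 at an unadjusted p under 0.05, 0 by DESeq2). gsc was at 7.22, 6.05, 11.6 and 7.05 CPM, inside the untreated range, with a log2 fold change of -0.08 (SE 0.458, edgeR adjusted p 1). chrd was at 0.656, 0.403, 0 and 0.881 CPM, from 6 counts in all. bmp7a and szl had 2 counts each in the group, those of szl both in replicate 2.

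Of all genes, none was called lower by edgeR in oligomycin at 3 hpf (0% of those tested, 220 at an unadjusted p under 0.05, 0 by DESeq2). Against actinomycin D embryos of that age edgeR called 0 of the 4 genes higher (0 at an unadjusted p under 0.05, 0 by DESeq2), where 0.133% of all genes were.

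By 4 hpf every oligomycin library held all 4 transcripts, bmp7a and szl at lower levels than in untreated embryos. gsc was at 14.0, 22.5, 16.9 and 47.7 CPM, a mean of 25.3 ± 15.4 (SD, n = 4) against 49.2 ± 8.11 in untreated embryos. Replicate 4 lay inside the untreated range and the other 3 libraries below it. The log2 fold change of gsc was -0.94 (SE 0.377, edgeR adjusted p 0.0792).

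chrd was at 11.2, 49.4, 32.4 and 85.3 CPM, a mean of 44.6 ± 31.3 (SD, n = 4) against 105 ± 46.5 in untreated embryos. Its replicate 4 was above untreated replicates 3 and 4, and the groups overlapped. The log2 fold change of chrd was -1.21 (SE 0.622, edgeR adjusted p 0.180).

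bmp7a was at 8.42, 14.5, 9.88 and 32.7 CPM, a mean of 16.4 ± 11.2 (SD, n = 4) against 76.1 ± 30.6. All 4 oligomycin libraries were below the lowest untreated library, and the log2 fold change of bmp7a was -2.18 (SE 0.438, edgeR adjusted p 0.00161). szl was at 2.01, 1.61, 2.82 and 13.8 CPM, a mean of 5.06 ± 5.85 (SD, n = 4) against 43.1 ± 17.8. It too lay below every untreated library, with a log2 fold change of -2.98 (SE 0.541, edgeR adjusted p 0.000989).

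bmp7a and szl, 2 of the 4 genes, were therefore called lower in oligomycin at 4 hpf, where 9.05% of all genes were. Whole embryos do not show where in the embryo these transcripts lay. In series 1 alone the log2 fold changes were -3.15 for bmp7a and -4.90 for szl, both called. In series 2 alone they were -1.22 (edgeR adjusted p 0.513) and -1.78 (edgeR adjusted p 0.264), neither called. The series means went opposite ways in the 2 groups: bmp7a had means of 11.5 CPM in series 1 and 21.3 CPM in series 2 of oligomycin embryos, against 101 and 51.5 CPM in untreated embryos. In oligomycin embryos the bmp7a libraries of the series overlapped, at 8.42 and 14.5 CPM in series 1 and 9.88 and 32.7 CPM in series 2. Without oligomycin replicate 4, the highest library, the values were -2.80 for bmp7a and -4.26 for szl, both called. gsc was called without oligomycin replicate 4 (log2 fold change -1.47, edgeR adjusted p 0.00591) and in series 1 alone (-1.62, edgeR adjusted p 0.00295). Whether bmp7a and szl responded more than gsc and chrd was not tested.

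As a share of the untreated 4 hpf mean, oligomycin replicates 1 to 4 held 28.5%, 45.9%, 34.4% and 97.1% of gsc and 10.7%, 47.3%, 31.0% and 81.6% of chrd. For bmp7a the shares were 11.1%, 19.0%, 13.0% and 43.0%, and for szl 4.65%, 3.73%, 6.54% and 32.0%. Replicate 4 held the highest share of each gene, and szl had the lowest share in every library. Against untreated libraries of the same series the shares were 32.6% for gsc, 21.3% for chrd, 11.4% for bmp7a and 3.21% for szl in series 1, and 76.5%, 88.6%, 41.4% and 27.7% in series 2. gsc was thus first in series 1 and chrd in series 2, while bmp7a and szl were the lower pair in both. gsc alone kept counts in every actinomycin D library at 4 hpf, with a mean of 5.35 CPM, against 1.14 CPM for chrd. In series 1 the gsc mean was 6.08 CPM with actinomycin D and 18.3 CPM with oligomycin. That level was not taken off the shares, so the order of gsc and chrd in series 1 is not secure.

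**Figure D2:**
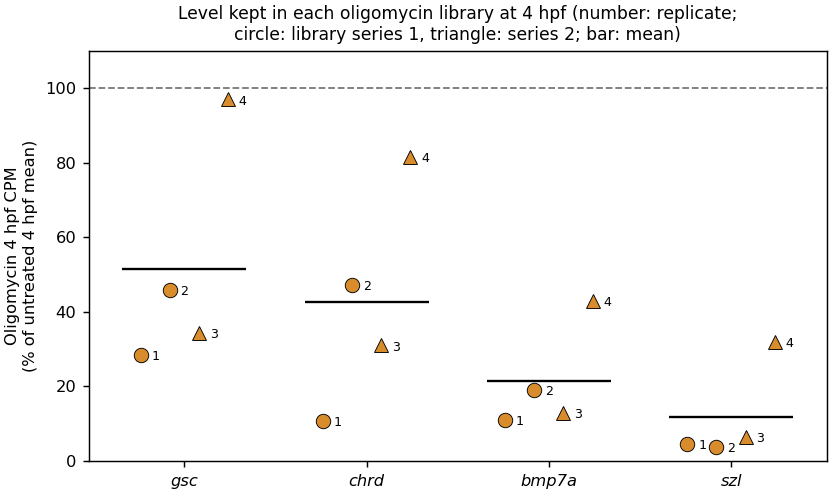
Level of each gene in each oligomycin 4 hpf library as a percentage of the untreated 4 hpf mean (numbers are replicates, bars the mean of 4, dashed line 100%). Replicate 4 is highest for every gene, at 97.1% for gsc and 32.0% for szl, and the means are 51.5% for gsc, 42.7% for chrd, 21.5% for bmp7a and 11.7% for szl.

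Because each library carries all 4 transcripts, their counts were also set against each other inside a library, a description chosen after the values were seen and given with no test. The ratio of gsc to bmp7a counts was 0.620, 0.506, 1.03 and 0.670 in untreated 4 hpf embryos and 1.67, 1.56, 1.71 and 1.46 in oligomycin 4 hpf embryos. All oligomycin libraries, replicate 4 included, were above all untreated libraries. The ratio of szl to chrd counts was 0.418, 0.364, 0.417 and 0.485 in untreated and 0.179, 0.0326, 0.0870 and 0.162 in oligomycin embryos, again without overlap. These oligomycin ratios rest on few szl counts, 5, 3, 8 and 46 in replicates 1 to 4.

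The other pairs that were formed overlapped, and gsc was not set against szl. The ratio of chrd to bmp7a ran from 1.11 to 1.79 in untreated and from 1.33 to 3.41 in oligomycin embryos, where replicate 1 was the low library. The ratio of szl to bmp7a ran from 0.404 to 0.75 and from 0.111 to 0.422, and that of chrd to gsc from 1.46 to 2.89 and from 0.8 to 2.19. For gsc against bmp7a and for chrd against szl, the ratio of the first gene to the second was therefore higher in each oligomycin library than in any untreated library. For chrd against bmp7a it was not, so the difference does not hold for every pair of gsc or chrd with bmp7a or szl. gsc also kept a mean of 5.35 CPM with actinomycin D at 4 hpf, a level not taken off the gsc counts used in these ratios. In replicate 1 gsc was at 7.46 CPM with actinomycin D and 14.0 CPM with oligomycin. The separation of gsc to bmp7a ratios between the groups is therefore not secure.

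**Figure D3:**
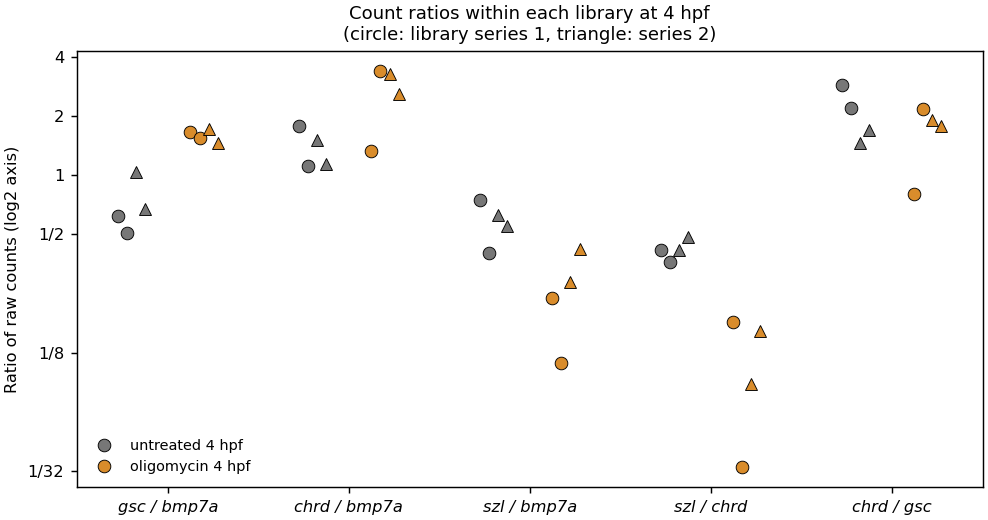
Ratios of raw counts between pairs of the 4 genes inside each 4 hpf library (log2 axis; grey untreated, orange oligomycin; circles library series 1, triangles series 2). The gsc to bmp7a ratio lies between 1.46 and 1.71 in oligomycin libraries and is at most 1.03 in untreated libraries, and the szl to chrd ratio is lower in every oligomycin library. The chrd to bmp7a, szl to bmp7a and chrd to gsc ratios overlap between the groups.

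Oligomycin embryos at 4 hpf were next set against embryos with transcription blocked and against younger embryos. In these comparisons as well the share of all genes without overlap was not counted, so overlap only describes the 4 genes. All 4 genes were higher than in actinomycin D embryos of the same age, where 9.79% of all genes were called higher, and no library overlapped. The log2 fold changes were 2.27 for gsc (SE 0.446, edgeR adjusted p 0.00180), 5.09 for chrd (SE 0.953, edgeR adjusted p 0.00236) and 4.51 for bmp7a (SE 0.699, edgeR adjusted p 0.000395). szl, with 62 counts against 1, was 59.8-fold higher with an exact counting interval from 10.3 to 2398.5 (edgeR adjusted p 0.00501). In series 1 alone gsc and bmp7a were called, and in series 2 alone gsc and chrd.

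Within oligomycin embryos the 4 hpf libraries were above the 3 hpf libraries for every one of the 4 genes, and 2 of them were called, where 0.498% of all genes were. bmp7a, with 185 counts against 2, was 92.2-fold higher with an exact counting interval from 25.2 to 767 (edgeR adjusted p 0.00749). The log2 rise of chrd was 6.19 (SE 1.08, edgeR adjusted p 0.0177). gsc (log2 fold change 1.72, SE 0.425, edgeR adjusted p 0.0654) and szl (30.9-fold, exact counting interval 8.20 to 261, edgeR adjusted p 0.0543) missed the threshold by edgeR, while DESeq2 called all 4. The call of chrd was lost without any 1 of the oligomycin 3 hpf libraries and without oligomycin 4 hpf replicate 4. With 2 libraries a group, series 1 alone called bmp7a and series 2 alone called none of the 4 by edgeR.

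All 4 genes were higher in oligomycin 4 hpf embryos than in untreated embryos 1 hour younger. Their libraries did not overlap, a description given without the share of all genes. Of the 4, 1 was called, where 0.116% of all genes were. That gene was bmp7a, with a log2 fold change of 3.76 (SE 0.626, edgeR adjusted p 0.0246), a call lost when oligomycin replicate 4 or untreated replicate 1, 3 or 4 was left out. The values were 4.15 for chrd (edgeR adjusted p 0.0947) and 1.64 for gsc (edgeR adjusted p 0.218), and szl was at least 21.8-fold higher (edgeR adjusted p 0.0506). In neither library series alone did edgeR call any of the 4. The rise of gsc with time differed between oligomycin and untreated embryos by -0.85 in log2 units (SE 0.595, edgeR adjusted p 0.521). That of chrd differed by 0.83 (SE 1.63, edgeR adjusted p 0.873) and that of bmp7a by 0.19 (edgeR adjusted p 0.939). No SE is given for bmp7a, because the calculated 0.699 was below the 0.849 of its rise in oligomycin embryos alone. In oligomycin embryos at 3 hpf the differences rest on 6 counts of chrd and 2 of bmp7a, so they do not show that the rises were alike. For szl (edgeR adjusted p 0.338) no size is given, since it had no count in untreated embryos at 3 hpf. Of the 4 genes edgeR called 0 in that interaction (0 at an unadjusted p under 0.05, 0 by DESeq2), where 0.214% of all genes were called lower.

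Ordered by mean level, szl, bmp7a and chrd were highest in untreated 4 hpf, then in oligomycin 4 hpf embryos. The 3 hpf and actinomycin D groups had means of at most 2.62 CPM. Single libraries of chrd were higher, at 8.70 CPM in untreated 3 hpf replicate 2 and 4.56 CPM in actinomycin D 4 hpf replicate 4. The lowest oligomycin 4 hpf library of chrd was at 11.2 CPM. Of these steps the first was beyond the spread for szl and bmp7a and not for chrd. gsc had the same first and second group, and its 3 hpf untreated, 3 hpf oligomycin and both actinomycin D groups had overlapping libraries, with means between 4.56 ± 2.18 and 8.38 ± 5.63 CPM (SD, n = 4).

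Summed markers of other embryonic layers were also compared at 4 hpf, without a test. In whole embryos fewer cells of a type and less RNA per cell cannot be told apart. The summed level of 9 enveloping layer markers was 642 to 1465 CPM in untreated, 64.6 to 365 CPM in oligomycin and 2.61 to 28.4 CPM in actinomycin D embryos at 4 hpf. Of these markers krt18b had no count in untreated embryos. The sum of 5 blastula markers was 2121 to 3230 CPM in oligomycin embryos, below the untreated range. Among these markers only sox19b overlapped, at 855 ± 67.8 against 969 ± 167 CPM (SD, n = 4). The sum of 3 yolk syncytial layer markers was 129 to 288 CPM against 232 to 381 CPM, with an overlap. Of these mxtx2 was at 160 ± 47.7 against 185 ± 27.4 CPM (SD, n = 4). Means of mxtx1 were 43.8 against 106 CPM and of hnf4a 2.15 against 10.8 CPM. The part of any of these layers in the lower levels of bmp7a and szl was not tested.

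The other genes of the pathway came from 7 lists of roles, in which 67 of 72 names matched an identifier and 41 genes were tested. In untreated embryos 18 of the 41 rose and 4 fell from 3 to 4 hpf, where 12.8% of all genes rose and 14.6% fell, and their median log2 fold change was 0.53 (0.0018 over all genes). In actinomycin D against untreated embryos at 4 hpf 19 were lower and 2 higher, where 7.12% and 4.4% of all genes were. In oligomycin against untreated embryos at 4 hpf 9 were lower and 4 higher, with a median of -0.35 (-0.04 over all genes). Of all genes 9.05% were lower and 12.3% higher there, so that the share of higher genes in the lists was near that of all genes. Series 1 alone gave 11 lower and 6 higher, and series 2 alone 0 and 0 by edgeR. In series 2 alone 4 of 13 ventral factors and BMP targets had an unadjusted edgeR p under 0.05. That is 1 of the 7 lists, and the share of all genes at that threshold in series 2 alone was not counted. Over all libraries it was 3873 of 11238 genes, but that fit had more libraries than series 2 alone. Whether the 4 of 13 are an excess can therefore not be read. Leaving out untreated replicate 1 or 2 or oligomycin replicate 1, 2 or 3 left 4 or 5 lower, and leaving out oligomycin replicate 1 or 2 left 2 higher.

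Among the ligands 0 of 3 tested were called in oligomycin at 4 hpf by edgeR, 2 at an unadjusted p under 0.05 and 0 by DESeq2. Of all genes 9.05% were called lower and 12.3% higher there by edgeR, and 3873 of 11238 had an unadjusted p under 0.05. With 3 genes tested, no difference from that background can be read. BMP2 (ENSDARG00000041430), a copy of the gene for the ligand that partners Bmp7 and not told apart by name from the other copy, was at 51.6 ± 12.6 CPM in untreated and 15.9 ± 11.4 CPM in oligomycin embryos (SD, n = 4; log2 fold change -1.67, edgeR adjusted p 0.0766). admp, a BMP-type ligand of the organizer, was at 112 ± 46.6 and 38.0 ± 30.0 CPM (edgeR adjusted p 0.180). gdf6a, another ligand of the family, was at 5.59 ± 1.38 and 9.67 ± 3.13 CPM (edgeR adjusted p 0.0832).

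Secreted antagonists and Chordin proteases gave 0 calls among 3 and 2 tested genes by edgeR, 0 at an unadjusted p under 0.05 and 0 by DESeq2. Of all genes 9.05% were called lower and 12.3% higher in that comparison. With so few genes tested, 0 calls do not show that these lists were spared. NOG (ENSDARG00000058819), the symbol of the antagonist Noggin, was at 8.91 ± 0.752 CPM in untreated and 6.64 ± 2.46 CPM in oligomycin embryos, and at 0.457 ± 0.442 CPM with actinomycin D at the same age (SD, n = 4). FSTL1 (ENSDARG00000039576), a secreted follistatin-like protein, and TWSG1, a Chordin-binding modulator, had log2 fold changes of -0.25 and -0.12. Both genes with the symbol BMP1, which belong to the Tolloid-type proteases, lay between 5.76 and 13.9 CPM in every group mean. tll1, also on the list of Chordin proteases, had too few counts to be tested. Their log2 fold changes in oligomycin were -0.03 (ENSDARG00000028071) and 0.0021 (ENSDARG00000028053).

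Receptors and Smads carry the signal into the cell. acvr1l, a type I receptor, was at 313 ± 44.8 CPM in untreated and 234 ± 30.7 CPM in oligomycin embryos at 4 hpf (SD, n = 4) and was lower by a log2 fold change of -0.42 (edgeR adjusted p 0.0172). Of the 7 receptors tested it was the 1 lower, and 2 were higher, where 9.05% and 12.3% of all genes were. The higher ones were bmpr1ba (0.60) and a gene with the symbol BMPR1A (ENSDARG00000105045, 0.72). The other BMPR1A (ENSDARG00000019728), also a type I receptor, and ACVR2A, a type II receptor, had log2 fold changes of 0.08 and 0.28 and were not called.

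smad5, the transcription factor phosphorylated by BMP receptors, was at 394 ± 24.9 CPM in untreated and 277 ± 30.9 CPM in oligomycin embryos (SD, n = 4; log2 fold change -0.50, edgeR adjusted p 0.00173). smad7, an inhibitory Smad, was at 17.4 ± 6.64 and 7.48 ± 3.27 CPM and was lower by -1.18 (edgeR adjusted p 0.0475). SMAD6 (ENSDARG00000053209), another inhibitory Smad, had a log2 fold change of 0.21 and was not called.

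Of the 13 ventral factors and BMP targets tested, 4 were lower and 2 higher in oligomycin, where 9.05% and 12.3% of all genes were. The share of higher genes was thus near that of all genes. ved, a ventral repressor of dorsal genes, was lower by -1.89 (edgeR adjusted p 0.0166). GATA2, foxi1 and tfap2c, transcription factors of ventral and non-neural ectoderm, were lower by -1.86, -1.75 and -2.56. The higher genes were ID2 (1.00) and id3 (0.81), inhibitors of basic helix-loop-helix factors. id1, of the same family, had the opposite sign, at -1.25 (edgeR adjusted p 0.0960), and the repressor vox was at -1.17 (edgeR adjusted p 0.0767), neither called.

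Of the 10 dorsal organizer genes tested, 2 were lower and 0 higher, where 9.05% and 12.3% of all genes were. These were foxa3, a forkhead factor (-1.73, edgeR adjusted p 0.0184), and ctnnb1, a gene for β-catenin (-0.52, edgeR adjusted p 0.00543). ctnnb2, the β-catenin gene needed for the organizer, was at -0.23, and noto, a homeobox factor of the notochord, at -0.78, neither called. noto had 110 ± 31.2 CPM in untreated, 62.9 ± 57.8 CPM in oligomycin and 0.439 ± 0.877 CPM with actinomycin D at 4 hpf (SD, n = 4).

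**Figure D4:**
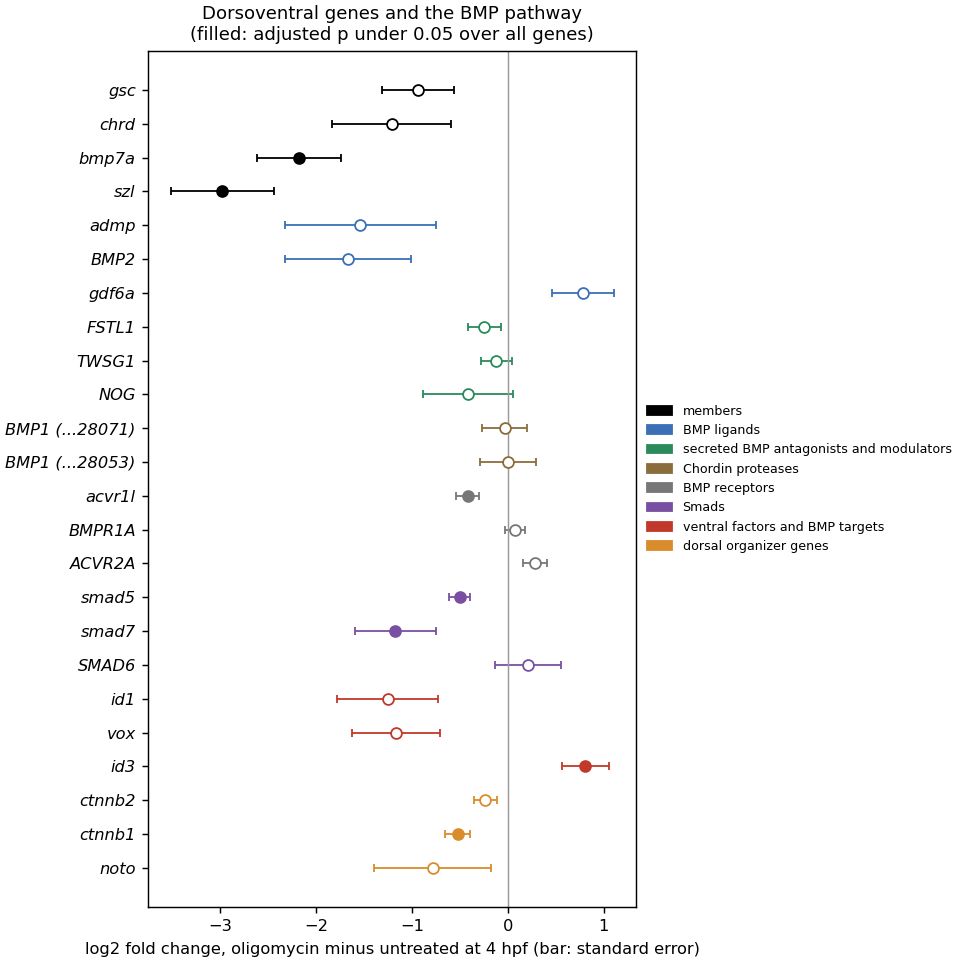
log2 fold change between oligomycin and untreated embryos at 4 hpf for the 4 genes and for up to 3 genes of each role list with the highest untreated 4 hpf level (bars are standard errors, filled points have an adjusted p under 0.05). szl at -2.98 and bmp7a at -2.18 lie farthest to the left, and id3 at 0.81 is the called gene to the right of 0.

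Genes with the most similar course over all libraries were sought among 11006 tested genes that have a symbol, by the mean absolute difference of log2 CPM, each gene centred on its own mean, over 24 libraries that share their groups and depth. For bmp7a they were si:dkey-238d18.15 (0.454), the keratin gene krt8 (0.458) and rassf7b (0.476). For szl they were CRABP2 (0.372), zgc:193505 (0.375) and spred2a (0.393), and for chrd SLC7A8 (0.447), stm (0.535) and PRICKLE1 (0.543). For gsc they were si:ch211-234c11.3 (0.397), si:dkey-244a7.1 (0.409) and lrrc15 (0.412), genes whose highest group mean was 8.58 CPM.

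With a prior count of 0.5 in place of 2 none of the 3 genes near gsc was found again, against all 3 for chrd and szl and 1 for bmp7a. With a prior count of 5 it was again none for gsc, and 2 each for chrd, szl and bmp7a. krt8 was not among the 3 genes nearest to bmp7a under either. It is also one of the enveloping layer markers, at 301 CPM in untreated, 42.5 CPM in oligomycin and 4.77 CPM in actinomycin D embryos at 4 hpf. Among the 4 genes themselves, chrd and bmp7a were closest (0.587), then szl and bmp7a (0.660), and chrd and gsc were farthest apart (1.62).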

How the data were processed

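QuantSeq (Lexogen), a kit that sequences the 3′ ends of RNA, was used for all 24 libraries, per the labels' protocols. Raw read counts per Ensembl gene identifier were deposited by the authors, per the file headers, with no normalization found in them. The submitters' processing notes name Bowtie2 2.3.4.1, featureCounts, Subread 1.6.2 and the build GRCz11. The annotation release, strand setting and any molecular identifiers are not given in the sources used here, so reads of overlapping antisense genes could not be told apart. No correction for gene length was made.

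The counts were fitted with edgeR 4.0.16 (R 4.3.3), using its filter for low counts by group, TMM scaling and the robust quasi-likelihood test on all 24 libraries, 1 mean per group. There were 10 comparisons of group pairs and 2 of the treatment effect between ages. P-values were adjusted over the 11238 genes tested. The fits were tested on simulated data with the same spread for all genes and changes only in genes of higher counts. That test does not cover genes with few counts, such as chrd, bmp7a and szl at 3 hpf, or with a wider spread. DESeq2 1.42.0, other scalings and filters, each library series, the library set as a block and leaving out each library were the alternatives, and the counts of role list genes under them were added after seeing the data. Where a group had no count, the fold was taken against 3 counts over the group; from 1 to 3 counts, the pooled ratio is given with an exact 95% interval.

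The 4 genes, the role lists and the markers were chosen with earlier results of these data known. The naming rule took the 4 genes, for each the 3 genes with a symbol of nearest course (prior count 2), and from each role list the 3 tested genes highest in untreated 4 hpf embryos. Other list genes that were called are named too, after their values were seen. A symbol table matched 29201 of 32520 identifiers, often by the human symbol, and copies sharing one are given with their identifier. Replicates are numbered in accession order, which follows the library numbers in the titles. Libraries with the same replicate number, called a set here, deviated together in 7 of the 10 pairwise comparisons, where all 4 pairs correlated above 0.1. In oligomycin against untreated embryos at 3 and 4 hpf, and in oligomycin 4 hpf against untreated 3 hpf embryos, 3 of the 4 pairs did, with lowest correlations of -0.00027, 0.0763 and -0.0293. The p-values and SEs in the results come from the unpaired fit in every comparison, these 7 included. The set entered only as a block, as an alternative. No pair of libraries of a group was alike within counting noise (lowest chi-square per gene 3.88).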

Additional observations from a re-analysis of the deposited data

Results flagged for a closer look

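One level stood far from the rest of its group. In actinomycin D embryos at 4 hpf, chrd had 13 counts in replicate 4 and 0 in the other 3 libraries, so that the gap to the nearest library was the whole range of the group (gap over range 1, above Dixon's 95% critical value). Of 17 groups of 4 libraries looked at over the 4 genes, 1 was marked in this way, and chance marks about 1 in 20. With 3 libraries tied at 0 the gap over range is 1 whatever the count in replicate 4. Neither the critical value nor the 1 in 20 can therefore be applied to this mark. The same library held 6 of the 7 counts of bmp7a and the single count of szl in its group, and was the highest of the 4 for 410 of the 800 genes called lower in actinomycin D at 4 hpf. All 4 genes were called lower than in untreated 4 hpf embryos without it too.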

How the results depend on the processing

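Over 38 fold changes of the 4 genes and 621 alternatives, 577 kept direction and side of the threshold, 21 lost their call, 15 gained one and 8 changed sign. Calls of all 4 genes in untreated embryos with time and in actinomycin D against untreated embryos at 4 hpf held in every alternative run. The number of the 4 called moved as follows. In oligomycin 4 against 3 hpf (2 of 4) it was 4 by DESeq2, 1 in series 1 alone, 0 in series 2 alone, and 1 to 4 with a library left out. In oligomycin against untreated embryos at 4 hpf (2 of 4) it was 0 in series 2 alone. In oligomycin against actinomycin D at 4 hpf (4 of 4) it was 2 in series 1 alone and 2 in series 2 alone. In oligomycin 4 hpf against untreated 3 hpf (1 of 4) it was 2 with total counts and by DESeq2, 0 with no filter and in either series alone, and 0 to 3 with a library left out. In the interaction of actinomycin D with time (0 of 4) it was 2 by DESeq2 and 0 to 1 with a library left out. Each series holds 2 libraries a group; the cause of the other moves was not tested.

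None of the changes of sign was in a called value. For gsc they were 0.3061 in actinomycin D against untreated embryos at 3 hpf and 1.328 in oligomycin against untreated embryos at 3 hpf, both in series 2 alone. With a library left out, gsc ranged from -0.42 to 0.24 in the latter and from -0.05747 to 0.55 in actinomycin D with time. For chrd the interaction of oligomycin with time was -0.8984 in series 2 alone and ranged from -1.14 to 1.25 with a library left out. The library set as a replicate block changed no call of the 4 genes; in oligomycin against untreated embryos at 4 hpf bmp7a was then at -2.20 and szl at -3.06. There, as in the 2 other comparisons in which 3 of the 4 sets correlated above 0.1, the pairing of libraries by set was not taken as shown.

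Among all genes, the number called lower in oligomycin at 4 hpf (1017) ran from 7 to 1789 over the alternatives and the number higher in oligomycin with time (56) from 0 to 157. Genes called higher in untreated embryos with time (1437) ran from 515 to 2080. Role list genes lower in oligomycin at 4 hpf (9) ran from 0 to 12, and 7 in place of 4 were higher with total counts and under the block. Scaling by total counts moved the median of all genes by at most 0.09 on the log2 scale, and no group mean of the 4 genes by more than its SD. Depth limits the 3 hpf and actinomycin D values of chrd, bmp7a and szl, which rest on 0 to 27 counts a group.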
